A study of Bos taurus with 30 samples.

Results

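The miRNAs bta-miR-204 and bta-miR-211, known together from the epithelium of the choroid plexus, were followed in the arcuate nucleus (ARC) of bull calves fed at 2 levels. They were taken by name, by a rule that sets no limit on their values but was made with earlier results of these data known, and are 2 of the 1030 mature miRNA rows in the table, of which 863 held a read in at least 1 calf. Small RNA of the ARC, a nucleus at the base of the hypothalamus beside the third ventricle, was sequenced in 30 Holstein-Friesian bull calves, with 1 library per calf. From 2 to 12 weeks of age, 15 calves received a high plane of nutrition (HI), which was 1.5 kg of milk replacer in 10 litres a day with concentrates at will. The other 15 calves received a moderate plane (MOD), which was 0.5 kg of milk replacer in 4 litres with 0.5 kg of concentrates a day. All calves were of one breed and sex, and all were sampled at the same age. The ARC was taken as a piece of dissected tissue, so each library mixes the RNA of all cells in that piece, and nothing in it separates cells of the nucleus from cells of the ventricle wall.

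A miRNA binds target messenger RNAs mainly through its seed, the bases near its 5′ end. The mature forms of miR-204 and miR-211 share that seed and differ at few bases, which makes them members of one family. In mammals miR-204 lies in an intron of TRPM3, the gene of a cation channel, and miR-211 in an intron of TRPM1, a related channel gene known from pigment cells. The bovine RefSeq annotation, here of assembly ARS-UCD2.0, lists MIR204 inside TRPM3 and MIR211 inside TRPM1. Both miRNAs are known from epithelia that line fluid spaces, including the choroid plexus, which makes cerebrospinal fluid, and the pigment epithelium of the eye.

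The authors' values have the form of CPM, which is the reads of a miRNA set against the total of its library after scaling between libraries. The worth of 1 read was estimated for each library from its low values, with more doubt for HI calf A31979, whose low values did not pass a separate check for whole reads. This gave 6291376 to 21083250 counted reads in HI libraries (median 8512614) and 7026125 to 20717302 in MOD libraries (median 8811432). The libraries fell into 21 shallower ones (12 HI and 9 MOD) with at most 8988039 reads and 9 deeper ones (3 HI and 6 MOD) with at least 17193358. The 9 calves with the lowest animal codes in their labels (7 HI and 2 MOD, all shallower) stood apart from the other 21 in many miRNAs. That cut was set by rank and not at a gap in the codes, and no label names it. Contrasts along it describe these data only. Values are therefore also given within these classes.

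The members of the pair differed greatly in level, miR-204 being among the most abundant miRNAs of the ARC and miR-211 in the middle of the order. The level of miR-204 was 29232 ± 5718 CPM (SD, n = 30), with 19955 CPM in the lowest calf, a median of 28291 CPM and 43990 CPM in the highest. It stood 7th in mean log2 level among the 476 miRNAs that passed the filter on low values, and between 3rd and 13th within single calves. It took from 1.77% to 5.08% of all counted reads of a library, or 136967 to 741468 reads. Its neighbours in the order of levels were miR-486 above, an erythroid miRNA, at 29547 ± 4586 CPM, and miR-411a below at 28556 ± 4352 CPM (both SD, n = 30), so that neither neighbour was separated from it beyond the spread between calves.

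The level of miR-211 was 55.7 ± 12.7 CPM (SD, n = 30), with 32.4 CPM in the lowest calf, a median of 53.8 CPM and 87.7 CPM in the highest. This put it 240th of the 476 tested miRNAs, and it was 285th in the calf where it ranked lowest. It was read 332 to 1070 times per library. The miRNAs next to it, miR-2483-5p at 57.3 ± 18.7 CPM and miR-22-5p at 54.9 ± 11.8 CPM (both SD, n = 30), also lay within its spread.

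Both varied less between calves than most miRNAs did. The highest level was 2.20 times the lowest for miR-204 and 2.71 times for miR-211, with coefficients of variation of 19.6% and 22.8%. The SD of the log2 level over the 30 calves was 0.28 for miR-204 and 0.32 for miR-211, against a median of 0.37 over the 476 tested miRNAs. The same MOD calf, A57867, was lowest for both. The highest miR-204 was in HI calf A37840, which was second for miR-211 with 83.2 CPM, and the highest miR-211 was in HI calf A37824, whose miR-204 was 31274 CPM. This order of calves depends on the scaling between libraries. As a share of counted reads miR-211 was highest in A37840 (0.00962%, against 0.00614% in A37824), as was miR-204, and the lowest shares were in MOD calf A41971 for miR-204 and MOD calf A73759 for miR-211.

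**Figure D1:**
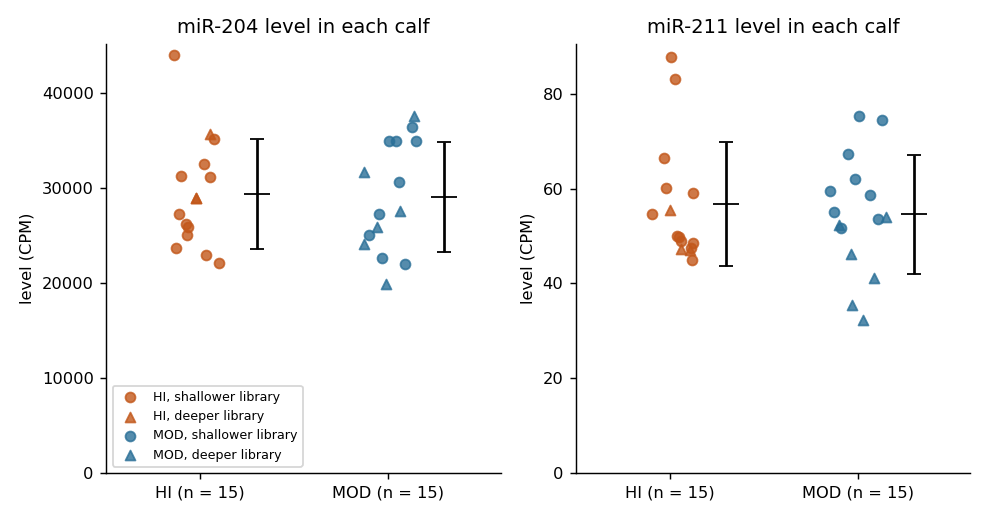
Level of miR-204 (left) and miR-211 (right) in CPM on linear axes from 0, with 1 point per calf, circles for shallower and triangles for deeper libraries, and the mean ± SD of each diet (n = 15) beside the points. The HI and MOD points overlap for both miRNAs, with the highest points in HI and the lowest in MOD calves. For miR-211 the triangles lie low among MOD calves and inside the range among HI calves.

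The first comparison asked whether the plane of nutrition was accompanied by another level of either miRNA in the ARC. The ranges of HI and MOD calves overlapped almost wholly. In HI calves miR-204 ranged from 22099 to 43990 CPM with a median of 28969 CPM, and in MOD calves from 19955 to 37606 CPM with a median of 27613 CPM. Only 1 HI calf lay above all MOD levels, while 2 MOD calves lay below all HI levels.

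The mean of miR-204 was 29401 ± 5829 CPM in HI and 29063 ± 5803 CPM in MOD calves (SD, n = 15 each). The log2 fold change, HI over MOD, was 0.02 (SE 0.10, 95% interval -0.19 to 0.23), and the adjusted p was 0.985 (limma, Benjamini-Hochberg over 476 miRNAs). The difference was far smaller than the spread between calves. In bulk tissue, fewer cells of a type and less RNA per cell cannot be told apart, which holds for every level given here.

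For miR-211 the HI calves ranged from 45.0 to 87.7 CPM with a median of 50.0 CPM, and the MOD calves from 32.4 to 75.2 CPM with a median of 54.1 CPM. The mean was 56.7 ± 13.1 CPM in HI and 54.6 ± 12.6 CPM in MOD calves (SD, n = 15 each). Here 13 HI levels fell inside the MOD range and 12 MOD levels inside the HI range. The log2 fold change was 0.06 (SE 0.12, 95% interval -0.18 to 0.30) and the adjusted p was 0.982 (limma, Benjamini-Hochberg over 476 miRNAs). The mean was higher in HI and the median higher in MOD calves, so the diets had no common order for miR-211.

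Neither miRNA was called. The thresholds were a fold change above 1.5 together with an adjusted p under 0.1, at which limma called 0 of the 476 tested miRNAs (0.00%). An unadjusted p under 0.05 was found for 21 of them (4.41%), and neither miR-204 nor miR-211 was one of these. On recovered reads of the 30 libraries, edgeR's quasi-likelihood test called 0 (20 with an unadjusted p under 0.05) and DESeq2 called 1, miR-2419-3p.

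The direction of the diet difference was not the same in all classes of libraries. For miR-204 the log2 difference of HI against MOD was -0.05 within the shallower libraries (exact permutation test, p = 0.70), 0.19 within the deeper ones (exact p = 0.381), -0.40 among the lowest animal codes (exact p = 0.111) and 0.18 among the other codes (exact p = 0.168). For miR-211 the same differences were -0.11 (exact p = 0.388), 0.22 (exact p = 0.274), -0.34 (exact p = 0.278) and 0.11 (exact p = 0.450). Over the 20 diet comparisons made this way for the miRNAs, their sum and their ratio, the smallest Benjamini-Hochberg adjusted p of these permutation tests was 0.794. The lowest animal codes set 7 HI calves against 2 MOD calves.

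Because the mature forms are so alike, a read can be hard to place between them. Some rows of the table held fractions of a read, in at least 10 libraries for 27 rows, most of them of the miR-2284 and miR-2285 families. Whether these fractions are reads divided between alike miRNAs was not tested. Both miR-204 and miR-211 came out as whole reads in 30 of 30 libraries, with a largest distance from a whole number of 7.66e-05 reads. Whether any of their reads were placed with the wrong one of the pair was not tested. The summed level of both, which does not depend on that division, was 29458 ± 5839 CPM in HI and 29117 ± 5812 CPM in MOD calves (SD, n = 15 each), a log2 difference of 0.02. The level of miR-211 was so small a part of this sum that the sum nearly repeats miR-204, whose log2 difference was also 0.02. It therefore cannot show whether reads of miR-204 were placed with miR-211.

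**Figure D2:**
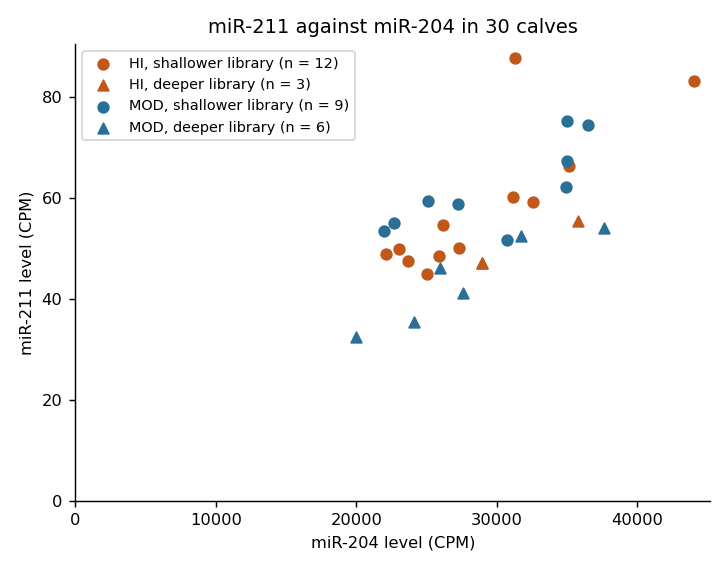
Level of miR-211 against that of miR-204 in CPM, linear axes from 0, 1 point per calf, coloured by diet with circles for the 21 shallower and triangles for the 9 deeper libraries. The points rise together, and the triangles lie along the lower edge.

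The second comparison asked whether the pair varied together among calves. Calves with more miR-204 had more miR-211. Over the 30 calves Pearson's r of the log2 levels was 0.70 (permutation p = 2e-05, adjusted p = 0.00068 over 34 relations) and Spearman's rho was 0.651 (permutation p = 9e-05, adjusted p = 0.00306). Without the 2 calves farthest from the median of miR-204, r was 0.578. It was positive within each class. In the 21 shallower libraries r was 0.782 (permutation p = 4e-05, adjusted p = 0.0036 over 90 relations within classes or diets) and in the 9 deeper ones 0.937 (exact permutation p = 9.92e-05, adjusted p = 0.00446). Among the 9 lowest animal codes r was 0.835 (exact permutation p = 0.00957, adjusted p = 0.123) and among the other 21 it was 0.711 (permutation p = 0.00029, adjusted p = 0.0087). Both levels of a calf share its scaling, and with libraries scaled by their total reads alone r was 0.792. There were only 1.44 to 2.81 miR-211 reads per 1000 miR-204 reads. The part of misplaced miR-204 reads in this relation was not tested.

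Each was the miRNA most like the other, with the same limit of reads that may be misplaced between them. Of the 475 other tested miRNAs, miR-211 had the highest rho with miR-204, and miR-204 the highest with miR-211, while the median rho over all of them was 0.02 for miR-204 and -0.02 for miR-211. The next most like miR-204 were miR-129-3p, known from neurons, with rho 0.56 over the 30 calves, miR-365-3p with 0.55, miR-2285x with 0.49 and miR-92b with 0.46. After miR-204, the most like miR-211 were miR-2285x with rho 0.64, miR-210, a miRNA known from low oxygen, with 0.42, miR-2285ak-5p with 0.39 and miR-92b with 0.38. Only miR-2285x and miR-92b stood in both sets of 5. The level of miR-2285x was low, at 3.26 ± 1.19 CPM (SD, n = 30).

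The ratio of the pair also varied between calves. There were between 1.44 and 2.81 miR-211 reads per 1000 miR-204 reads, with a median of 1.88, and 1.80 over the reads of all libraries together, in which the deeper libraries weigh more. The lowest was in MOD calf A47874 (95% exact binomial interval 1.35 to 1.53, Clopper-Pearson) and the highest in HI calf A37824 (2.56 to 3.07). These intervals cover counting error only, since reads without molecular identifiers are not independent molecules.

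The diets overlapped in this ratio. It was 1.94 ± 0.30 in HI and 1.89 ± 0.35 in MOD calves (SD, n = 15 each), a log2 difference of 0.04 (permutation p = 0.627, adjusted p = 0.794 over 20 comparisons). Within the shallower libraries the log2 difference was -0.06 (exact permutation p = 0.500) and within the deeper ones 0.03 (exact permutation p = 0.714).

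**Figure D3:**
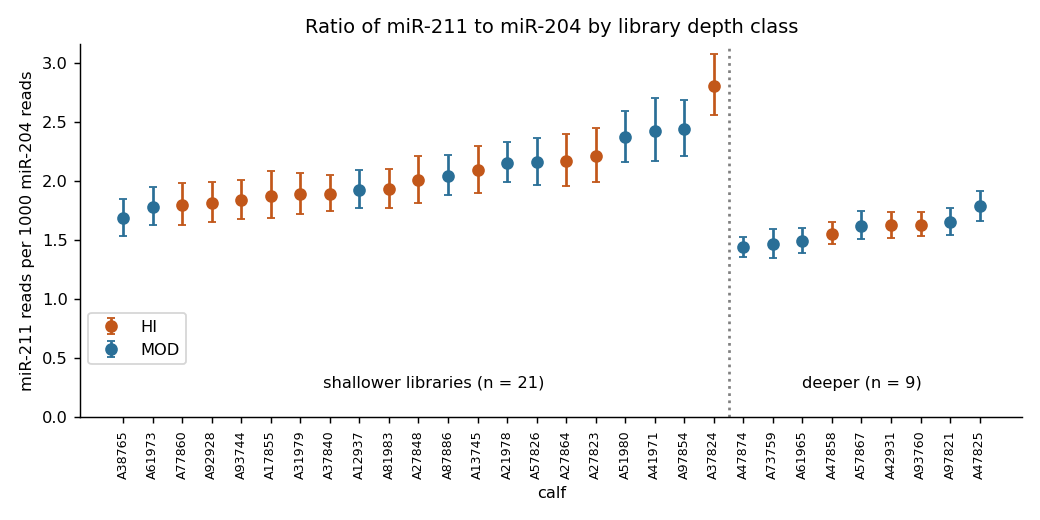
Reads of miR-211 per 1000 reads of miR-204 in each calf, with 95% exact binomial intervals for counting error, sorted within the 21 shallower (left) and 9 deeper libraries (right) and coloured by diet. Of the shallower libraries 19 lie above the highest deeper one at 1.78. Both diets are found in each class, and the HI calves of the deeper class lie between MOD calves.

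The ratio separated by library depth. In the 21 shallower libraries it ranged from 1.68 to 2.81 with a median of 2.00, and in the 9 deeper libraries from 1.44 to 1.78 with a median of 1.62. Of the shallower libraries 19 lay above the highest deeper one, and 8 of the deeper libraries lay below the lowest shallower one. The log2 difference of deeper against shallower was -0.37, a fold of 0.773 (exact permutation p = 3.56e-06, adjusted p = 8.56e-05 over 24 comparisons between classes). It was -0.33 among HI calves (3 against 12, exact p = 0.0110, adjusted p = 0.0330), -0.41 among MOD calves (6 against 9, exact p = 0.00140, adjusted p = 0.00622) and -0.34 without the lowest animal codes (9 against 12, exact p = 9.53e-05, adjusted p = 0.00114). Scaling between libraries cannot move this ratio, since both levels of a calf are divided by the same factor. The contrast of depth classes was chosen with the depths and levels known.

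Of the pair, miR-211 differed between the depth classes. Its level was 59.9 ± 11.9 CPM in the 21 shallower and 45.7 ± 8.08 CPM in the 9 deeper libraries (SD), a log2 difference of -0.39 (exact permutation p = 0.00110, adjusted p = 0.00622). In MOD calves the 9 shallower libraries ranged from 51.6 to 75.2 CPM and the 6 deeper ones from 32.4 to 54.1 CPM. In HI calves the 12 shallower ones ranged from 45.0 to 87.7 CPM, and the 3 deeper ones stood at 47.1, 47.2 and 55.5 CPM. The deeper libraries thus lay low among MOD calves and inside the range among HI calves. In MOD calves the log2 difference was -0.52 (6 against 9, exact p = 0.000999, adjusted p = 0.00622), and in HI calves -0.20 (3 against 12, exact p = 0.330, adjusted p = 0.553). For miR-204 the level was 29350 ± 5928 CPM in the shallower and 28957 ± 5526 CPM in the deeper libraries (SD), a log2 difference of -0.02 (exact p = 0.884, adjusted p = 0.886).

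Across all miRNAs, with the diet in the model, miR-211 had the smallest unadjusted p of the 476 for the depth classes (limma, log2 difference -0.39, SE 0.11, unadjusted p = 0.00187). Its adjusted p was 0.463 (limma, Benjamini-Hochberg), and limma called 0 of the 476 miRNAs (0.00%) at an adjusted p under 0.1. Within a depth class the relation of miR-211 to the number of counted reads did not pass the test, with r = -0.283 and rho = -0.256 in the 21 shallower libraries and r = -0.297 and rho = 0.117 in the 9 deeper ones (adjusted p = 0.765 for both r, permutation, exact in the deeper class). The sign in the deeper class turned to r = 0.308 without the 2 farthest libraries. For the ratio r with the counted reads was 0.032 in the shallower and 0.177 in the deeper libraries (adjusted p = 0.963 and 0.85, permutation, exact in the deeper class), and -0.0076 and -0.098 without the 2 farthest libraries. Whether a lane, day or preparation lies behind the depth classes is not given in the sources used here, and any part of these in the ratio was not tested.

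The lowest animal codes had a higher ratio than the others, by 0.22 on the log2 scale (9 against 21, exact permutation p = 0.0150, adjusted p = 0.0400). The log2 difference was 0.28 among HI calves (7 against 8, exact permutation p = 0.00155, adjusted p = 0.00622) and 0.15 among MOD calves (2 against 13, exact permutation p = 0.495, adjusted p = 0.664). Within the shallower libraries, to which all of them belong, that difference was 0.08 (9 against 12, exact permutation p = 0.346, adjusted p = 0.553). In the model with diet, 136 of the 476 miRNAs (28.6%) differed along the animal codes at an adjusted p under 0.1 (limma), and neither miR-204 (log2 difference -0.06, adjusted p = 0.780) nor miR-211 (0.18, adjusted p = 0.377) was among them. All of these contrasts use the cut on the codes that was set by rank.

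The third comparison set the pair beside other miRNAs that mark the cells a piece of ARC can hold. The lining of the ventricle, choroid plexus epithelium and ependyma with its cilia, is known for the miR-34 and miR-449 families, which act in cells that grow many cilia. RefSeq lists MIR34B and MIR34C inside BTG4 and HOATZ, and MIR449A, MIR449B and MIR449C inside CDC20B. All 5 of these miRNAs were read in all 30 libraries, and their summed level had a median of 1728 CPM and a highest value of 4257 CPM in HI calves. In MOD calves it ran from 66.2 to 4608 CPM with a median of 2282 CPM. The calves with the lowest and highest sums of all were both MOD, with a far wider spread than that of miR-204 or miR-211. The level of miR-34c, the most abundant, was 1571 ± 1183 CPM in HI and 1957 ± 1186 CPM in MOD calves (SD, n = 15 each).

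The ventricle lining miRNAs showed no relation to the pair that passed the test. The rho of the 5 with miR-204 lay between -0.13 and 0.04, and with miR-211 between -0.19 and -0.01. Their mean log2 level had r = -0.002 and rho = 0.092 with miR-204 (permutation p = 0.992 and 0.626, adjusted p = 0.992 and 0.861) and r = -0.110 and rho = -0.107 with miR-211 (permutation p = 0.563 and 0.574, adjusted p = 0.767 and 0.861). Within the depth and code classes r with miR-204 lay between -0.406 and 0.464, with no common sign. With the ratio of miR-211 to miR-204 the mean log2 level of this list had r = -0.148 over the 30 calves (permutation p = 0.433, adjusted p = 0.765), and r = -0.472 without the 2 farthest calves. In the 21 shallower libraries r with the ratio was -0.538 (permutation p = 0.0119, adjusted p = 0.134 over 90), in the 9 deeper ones -0.160, among the lowest animal codes -0.576 and among the other codes -0.038. The name choroid plexus for the pair rests on its known source and not on these values, in which the ventricle lining list did not follow miR-204. It was not checked against messenger RNA markers, which were not analysed here. Which cells of the piece held the reads of the pair was not tested.

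A second group lies in or beside HTR2C, the gene of a serotonin receptor that the choroid plexus uses strongly and that hypothalamic neurons use too. RefSeq lists MIR448 and MIR1911 inside HTR2C. Of the 5 rows found, miR-764 was at 0 in all 30 libraries, which allows levels up to 0.138 to 0.558 CPM (3 reads, by library), and 4 were tested. The most abundant, miR-1298, ranged from 267 to 661 CPM with a median of 469.8 CPM. Their mean log2 level had r = 0.229 with miR-204 (permutation p = 0.224, adjusted p = 0.765) and r = 0.25 with miR-211 (permutation p = 0.182, adjusted p = 0.765). Within the depth and code classes r with miR-204 ran from -0.048 (deeper libraries) to 0.379 (shallower libraries). With miR-211 it ran from -0.356 (deeper libraries) to 0.363 (lowest animal codes). With the ratio the list had r = 0.071 over the 30 calves (permutation p = 0.709, adjusted p = 0.861). In the 9 deeper libraries r with the ratio was -0.840 (exact permutation p = 0.00101, adjusted p = 0.0228 over 90), where rho was -0.85 (exact permutation p = 0.00607, adjusted p = 0.135), while r was -0.148 in the 21 shallower libraries, 0.214 among the lowest animal codes and -0.055 among the other codes. Of the 4, miR-1264 was the most like both, with rho 0.32 with miR-204 and 0.36 with miR-211, which placed it 27th and 6th of 475.

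**Figure D4:**
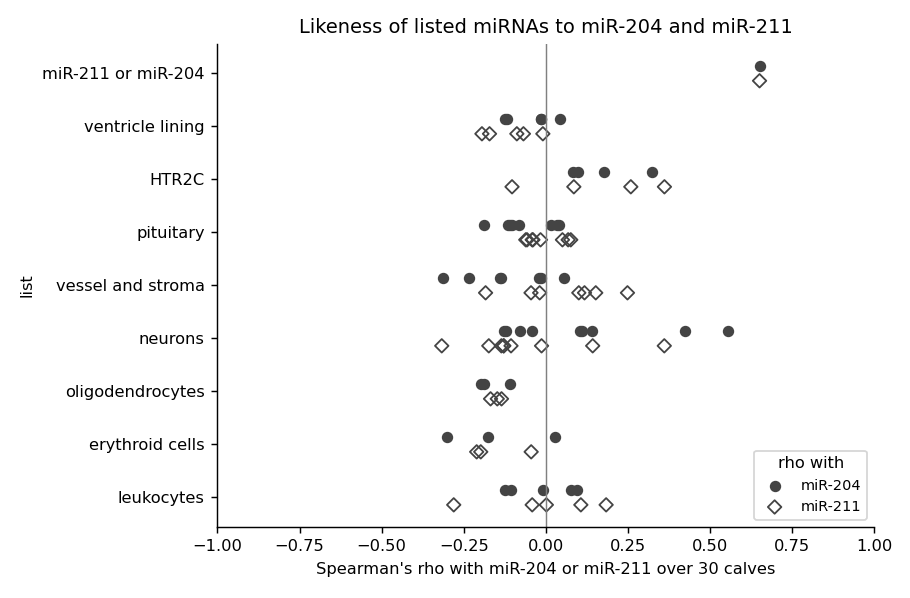
Spearman's rho over the 30 calves of each listed miRNA with miR-204 (filled circles) and with miR-211 (open diamonds), 1 row per list, on an axis from -1 to 1. The rho of the pair itself, 0.651, lies to the right of every listed miRNA, and the ventricle lining miRNAs lie between -0.19 and 0.04.

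Lists for other cells were set beside the pair in the same way. Neuronal miRNAs were abundant, as belongs to hypothalamic tissue, with a summed level of 19372 to 89900 CPM in HI and 25431 to 85418 CPM in MOD calves. The mean log2 level of the 9 tested had r = 0.150 with miR-204 and r = -0.224 with miR-211 (adjusted p = 0.765 for both, permutation). Within the depth and code classes r of this list took both signs, from -0.298 to 0.635 with miR-204 and from -0.573 (lowest animal codes) to 0.670 (deeper libraries, exact permutation p = 0.0461, adjusted p = 0.346 over 90) with miR-211. Within that list miR-129 and miR-129-3p had rho 0.42 and 0.56 with miR-204, and the other 7 lay between -0.13 and 0.14. With the ratio of miR-211 to miR-204 the neuronal list had r = -0.482 (permutation p = 0.00667, adjusted p = 0.113), which rested on 2 calves, since r was -0.091 without the 2 farthest.

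The lists for vessel and stroma, oligodendrocytes, erythroid cells and leukocytes had r between -0.267 and 0.022 with either miRNA over the 30 calves. Within the depth and code classes r was wider and took both signs. For vessel and stroma it ran from -0.470 to 0.553 with miR-204 and from -0.538 (deeper libraries) to 0.605 (lowest animal codes) with miR-211. For oligodendrocytes it ran from -0.547 to 0.275 with miR-204 and from -0.519 (lowest animal codes) to 0.526 (deeper libraries) with miR-211. For erythroid cells the ranges were -0.461 to 0.085 and -0.602 to 0.233, and for leukocytes -0.387 to 0.172 and -0.211 to 0.389. The smallest adjusted p of these and of the neuronal list with either miRNA within classes was 0.283 (permutation, over 90). The pituitary list split the calves into 9 with a high score (5 HI and 4 MOD) and 21 others, and within these r with miR-204 was -0.220 and 0.201, and with miR-211 0.056 and 0.150. None of these relations passed an adjusted p of 0.05. Of the 34 relations of this family, the one between miR-204 and miR-211 alone did so. Of the 90 computed within classes or diets, 5 had an adjusted p of Pearson's r under 0.05, of which 4 were of miR-204 with miR-211 and 1 was of the HTR2C list with the ratio in the deeper libraries.

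The diets overlapped in the lists as well. Of the 5 ventricle lining miRNAs 0 were higher and 5 lower in HI calves, with a median log2 fold change of -0.45 against -0.002 over all 476 tested, and 0 were called or had an unadjusted p under 0.05 (limma). The 4 HTR2C miRNAs had a median of 0.15, with 4 higher and 0 lower in HI, and 0 called or with an unadjusted p under 0.05. The intervals of the ventricle lining miRNAs were several times as wide as those of miR-204 and miR-211. In the other 6 lists limma called 0 miRNAs, and 1, miR-145 of vessel walls, had an unadjusted p under 0.05. Higher and lower members in HI numbered 8 and 0 for pituitary (median 0.64), 1 and 6 for vessel and stroma (median -0.12), 1 and 8 for neurons (median -0.15), 3 and 0 for oligodendrocytes (median 0.12), 3 and 0 for erythroid cells (median 0.03) and 2 and 3 for leukocytes (median -0.10). Over all 476 tested miRNAs 49.4% were higher in HI. The members of a list were read in the same calves, so their directions are not separate observations. These counts show no direction of a list.

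**Figure D5:**
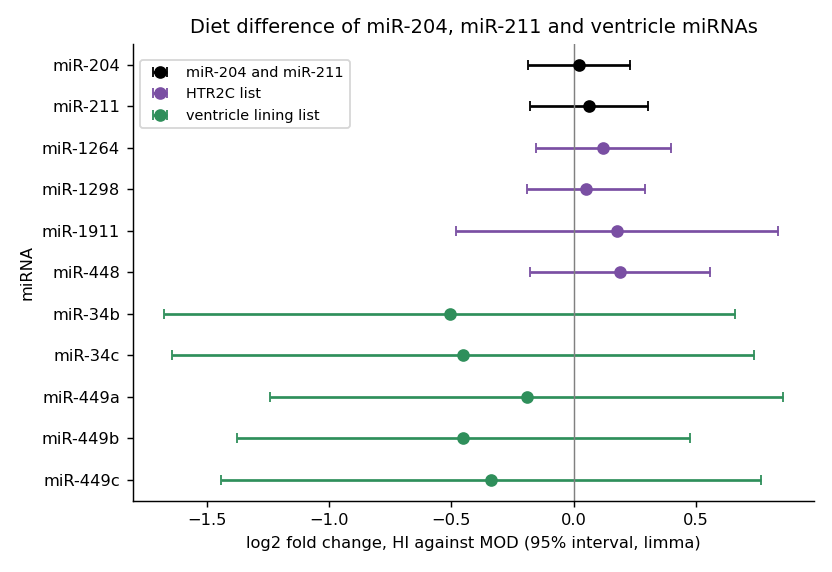
Log2 fold change of HI against MOD calves with its 95% interval from limma, for miR-204 and miR-211, the 4 tested miRNAs of the HTR2C list and the 5 of the ventricle lining list. Every interval includes 0, and those of miR-204 (-0.19 to 0.23) and miR-211 (-0.18 to 0.30) are among the 3 narrowest, with that of miR-1298.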

How the data were processed

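The authors trimmed reads with Cutadapt (2.6 in the submitters' processing notes), kept lengths of 15 to 28 bases, removed other small RNA classes and counted miRNAs with miRDeep2 and Bowtie on ARS-UCD1.2. The labels name a stranded RNA kit and the methods a small RNA kit. The deposited signal values are decimals of CPM form over scaled library sizes, and their normalization is not given in the sources used here. Reads were recovered from the worth of 1 read per library (94.5% to 97.9% of values under 200 reads whole within 0.05 reads). Count tests used all 30 libraries, and again 29, without HI calf A31979, whose low values did not pass a separate check for whole reads.

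limma 3.58.1 (lmFit, eBayes with trend) was run on log2(CPM + 0.25), worth 2.16 reads at the median depth, for 476 miRNAs kept by filterByExpr of edgeR 4.0.16 (10 reads at median depth in at least 14 libraries). The limma fit, and not the other tests, was run on simulated counts first. Single values used two-sided permutation tests (100000 resamples) or exact ones. DESeq2 1.42.0, other scalings, filters, pseudocounts, class terms and leaving out each calf were alternatives. The miRNAs and lists were chosen with earlier results of these data known. Named miRNAs are the pair, the listed miRNAs, the 5 most like each of the pair and its neighbours in level. Animals, 1 library each, are the replicates, and no sequences are printed.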

Additional observations from a re-analysis of the deposited data

How the results depend on the processing

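No paired analysis was possible because HI and MOD calves are different animals and the labels number no replicates. Of 15 alternatives each, 2 turned the sign of the diet difference (log2, HI against MOD) of miR-204, which was -0.0232 with library size only and -0.0016 in edgeR's quasi-likelihood test on 29 libraries, and 2 that of miR-211, which was -0.0154 with the depth class as a term and -0.0220 with depth class and lowest animal codes as terms. The summed level was at -0.0232 with library size only, -0.0495 within shallower libraries and -0.404 within the lowest codes, and the ratio of miR-211 to miR-204 at -0.0567 within shallower libraries and -0.0681 within the other codes. None of the differences listed so far passed its test, and the cause was not tested. The number of miRNAs called moved from 0 to 1 with DESeq2 on 30 libraries (21 with an unadjusted p under 0.05) and on 29 (19), and stayed at 0 in the other 13. Leaving out each of the 30 calves gave -0.0235 (without A37840) to 0.0483 for miR-204, 0.0116 to 0.0981 for miR-211, -0.0234 to 0.0483 for the sum, 0.0040 (without A37824) to 0.0706 for the ratio and 0 to 1 calls (1, miR-2419-3p, without HI calf A77860 or MOD calf A97854). The sign turned in 6 of 30 cases for miR-204 and the sum and in 0 for miR-211 and the ratio, and for the sum and the ratio these cases are values without a test. The relation of the pair kept its sign and an unadjusted p under 0.05 in 5 of 5 alternatives, with r from 0.711 to 0.937. Of the 476 miRNAs 49.4% were higher in HI, against 34.9% with library size only, 50.8% with DESeq2 size factors and 61.1% with upper quartile scaling, where the median log2 fold change was -0.002, -0.04, 0.01 and 0.04.

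Both miRNAs had at least 332 reads in each library, and both are limited by the spread between calves. The 9 deeper libraries hold 3 HI and 6 MOD calves, so diet and depth overlap in part. The count tests on 29 libraries were added after the data were seen.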
